A study of Danio rerio with 6 samples.

Results

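Cadherins and protocadherins were compared between wild-type (WT) zebrafish (Danio rerio) embryos and embryos labelled 3etv, which the series names Pea3 triple mutants. They were chosen by symbol, as all genes named cdh followed by a digit or beginning with pcdh, with 10 or more counts summed over the 6 libraries. The rule gave 70 of the 32057 genes in the deposited table: 14 classical cadherins, 11 other cadherins, 7 protocadherins of the pcdh8 type, 12 other non-clustered protocadherins and 26 clustered protocadherins. Another 13 genes with such names had fewer counts. Just inside the limit were pcdh1a4, pcdh1gb2 and cdh24a with 10 counts each, and just outside it were pcdh2ab9 with 9 and pcdhb with 8.

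Each library came from 1 whole embryo at the 10-somite stage, when blocks of future muscle and vertebra are forming along the trunk. There were 3 WT and 3 3etv embryos, and embryos are named below by genotype and number. The Pea3 genes encode ETS transcription factors that respond to fibroblast growth factor signals. The labels do not say which 3 of them are mutated, what the alleles are, or from which clutch or line the embryos came, so genotype and clutch or line cannot be told apart.

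Cadherins are membrane proteins that join cells through calcium-dependent contacts. Classical cadherins, divided into type I and type II, bind catenins inside the cell, which link the contact to actin, and cells with different cadherins tend to sort from each other. Non-clustered protocadherins have other intracellular tails. Those of the pcdh8 type (pcdh8, pcdh10a, pcdh10b, pcdh17, pcdh18a, pcdh18b and pcdh19) are known from early development, where pcdh8, also called papc, acts in paraxial mesoderm and somite formation. Clustered protocadherins are made from arrays of alternative first exons joined to shared last exons, and in mouse they give neurons distinct surface identities.

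Gene counts totalled from 22446699 to 28841169 per WT library and from 18484238 to 21865288 per 3etv library. Of the Pea3 genes, etv5b had from 192.8 to 209.9 CPM (counts relative to the library total, after scaling between libraries) in WT and from 54.7 to 69.2 in 3etv. etv5a had from 74.9 to 78.4 and from 25.4 to 28.6 CPM, and both genes differed (edgeR adjusted p 1.89e-08 and 1.82e-08). The etv1 level was from 1.08 to 1.65 CPM in WT and from 0.442 to 0.642 in 3etv (adjusted p 0.00822). etv4 had from 86.0 to 89.8 CPM in WT and, more widely spread, from 45.9 to 77.7 in 3etv. Its groups did not overlap, but it did not pass the threshold (log2 fold change -0.52, adjusted p 0.057).

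Of the 70 cadherin and protocadherin genes, 39 passed the filter on low counts and were tested. Of these, 14 differed at an edgeR adjusted p under 0.05, 5 higher and 9 lower in 3etv. Over all 18533 tested genes, 31.3% differed, 15.9% higher and 15.4% lower, so the 35.9% found here was close to the background. For 22 of the 39 genes the CPM ranges of both groups were separate, 10 above and 12 below WT. The same held for 45.1% of all tested genes, 22.7% above and 22.4% below. The median log2 fold change was -0.21, against 0.0035 for all tested genes. cdh13, cdh23 and cdh30 passed the filter through 1 group alone, so for them a difference was built into being tested. Counts were not divided by transcript length, so levels are compared between embryos and not between genes.

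The calls were counted by class. Over all tested genes, 15.9% were higher and 15.4% lower. Among the tested classical cadherins, 3 of 10 were higher and 3 lower, and among other cadherins 1 of 7 was higher and 4 were lower. The calls among other cadherins include cdh13, cdh23 and cdh30, which passed the filter through 1 group alone. Of the 7 pcdh8-type genes 1 was higher and 1 lower, and of 9 other non-clustered protocadherins 1 was lower. None of the 6 tested clustered protocadherins differed with edgeR, DESeq2 or limma voom, and 0 of them had an unadjusted p under 0.05 with any of these tools. Whether the classes differ from each other was not tested.

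**Figure D1:**
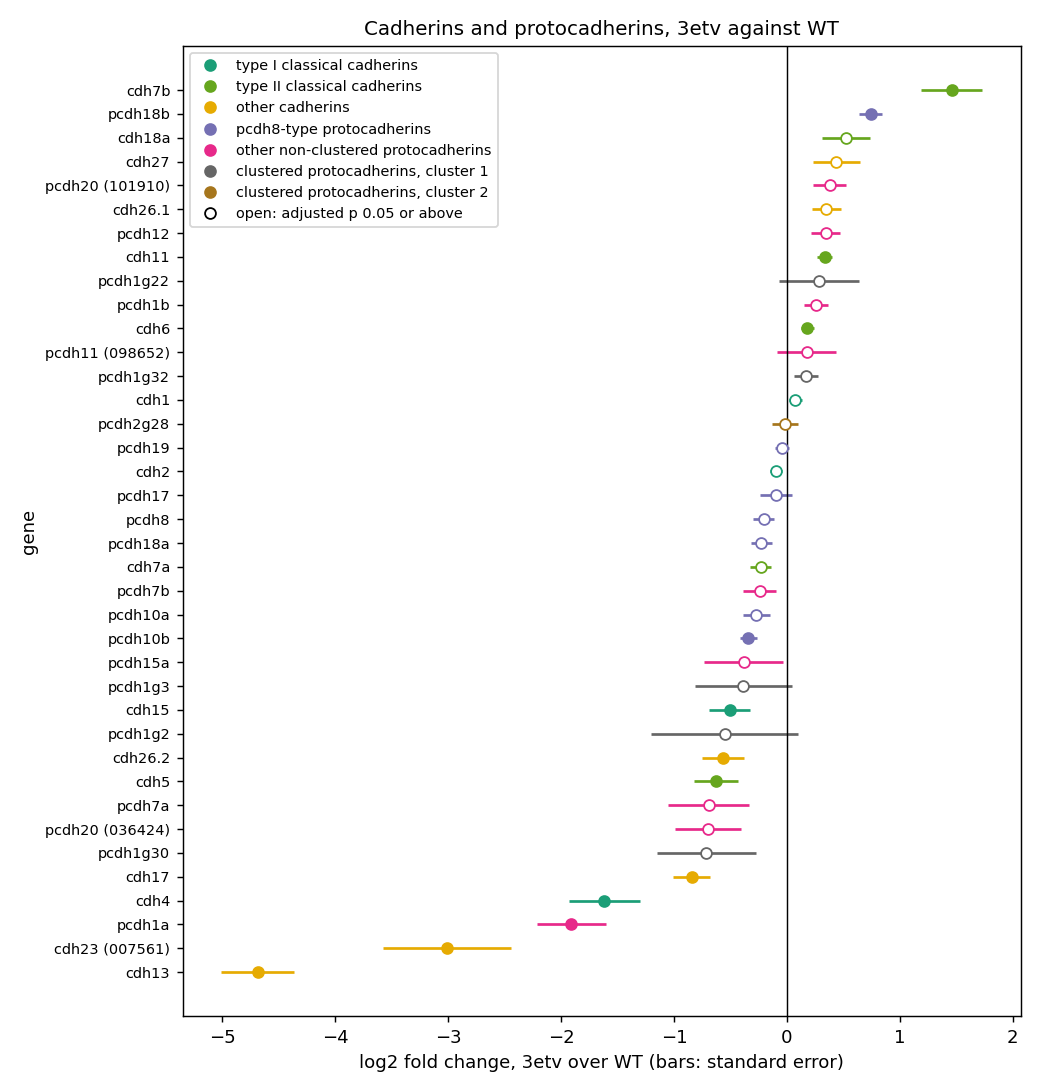
Log2 fold change of 3etv over WT (horizontal axis, bars showing the standard error) for the tested genes (vertical axis), coloured by class, with filled points for an edgeR adjusted p under 0.05. cdh30 is not drawn because it had no count in WT, and the lowest value is that of cdh13 at -4.69.

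The type I classical cadherins with the most counts did not pass the threshold. cdh2 encodes N-cadherin, which zebrafish need to form the neural tube, and it took 44.2% of all counts of the 70 genes. It had 848.9, 889.3 and 881.5 CPM in WT embryos 1 to 3 and 847.9, 813.5 and 794.1 CPM in 3etv embryos 1 to 3. All 3etv values lay below all WT values, though WT 1 and 3etv 1 nearly met, and the log2 fold change was -0.09 ± 0.053 (SE) with an edgeR adjusted p of 0.20. cdh1 encodes E-cadherin, the main cadherin of epithelia, needed for epiboly in zebrafish. Its values were 136.2, 135.1 and 143.5 CPM in WT and 143.5, 152.9 and 140.2 CPM in 3etv. The groups overlapped, with a log2 fold change of 0.07 ± 0.060 (SE) and an adjusted p of 0.38.

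cdh4 encodes R-cadherin, named from the retina, and it fell. It had 1.74, 1.51 and 1.96 CPM in WT and 0.482, 0.736 and 0.442 CPM in 3etv, from raw counts of 39, 44 and 49 against 9, 16 and 8. The highest mutant value was under 1 CPM and the lowest WT value above it. The log2 fold change was -1.62 ± 0.32 (SE) with an edgeR adjusted p of 0.0018, or 3.07-fold lower in 3etv.

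cdh15 encodes M-cadherin, the cadherin of muscle precursors, and its level was lower in 3etv by a small margin. WT embryos had 4.64, 6.91 and 6.39 CPM and 3etv embryos 4.71, 4.09 and 3.87 CPM. WT 1 lay below 3etv 1, so the groups overlapped. The log2 fold change was -0.51 ± 0.18 (SE) with an edgeR adjusted p of 0.046. The call was lost with DESeq2 (adjusted p 0.065) and limma voom (0.059), with upper-quartile scaling or a filter at a mean of 50 counts (0.053 each), and in turn without WT 2, WT 3, 3etv 2 or 3etv 3, where adjusted p reached 0.19. Of 8 skeletal muscle markers, 7 were lower and 1 (acta1b) higher, with summed levels from 756.9 to 837.7 CPM in WT and from 499.5 to 566.3 CPM in 3etv. The part of these markers in the cdh15 result was not tested, and in whole embryos fewer cells of a type and less RNA per cell cannot be told apart. For this and each marker list below, the shares over all tested genes were 15.9% higher and 15.4% lower. No marker list was tested against them.

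Among type II cadherins, cdh11 and cdh6 rose slightly and cdh7b rose more. cdh11, known in mammals as the cadherin of osteoblasts and mesenchyme, had 69.4, 61.8 and 63.1 CPM in WT and 80.0, 82.2 and 82.7 CPM in 3etv. The mutant embryos were tightly grouped above WT, with a log2 fold change of 0.33 ± 0.066 (SE) and an edgeR adjusted p of 0.0020. cdh6, first described in mammalian kidney, had 129.0, 127.0 and 126.8 CPM in WT and 147.4, 150.5 and 136.1 CPM in 3etv. The WT values were close together and all lay below the mutant values, for a log2 fold change of 0.18 ± 0.060 (SE) and an adjusted p of 0.035. Without WT 2, WT 3, 3etv 1 or 3etv 2, the adjusted p of cdh6 was between 0.082 and 0.14, with log2 fold changes from 0.15 to 0.18, and without a filter on low counts it was 0.060.

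cdh7b and its copy cdh7a are related to the cadherin that migrating neural crest cells use in chick. cdh7b had 1.61, 2.22 and 1.16 CPM in WT and 3.27, 4.69 and 5.91 CPM in 3etv. Every mutant embryo exceeded every WT embryo, with a log2 fold change of 1.46 ± 0.27 (SE) and an edgeR adjusted p of 0.0014, a 2.75-fold rise. cdh7a had 28.1, 32.4 and 31.5 CPM in WT and 29.02, 24.2 and 25.2 CPM in 3etv. Its groups overlapped and it did not pass (log2 fold change -0.23, SE 0.093, adjusted p 0.074), except without a filter on low counts (0.048) or without WT 1 (0.030) or 3etv 1 (0.032). Of 6 neural crest markers, 3 were lower and 0 higher, with summed levels from 568.8 to 601.5 CPM in WT and from 447.0 to 540.0 CPM in 3etv, and their part was not tested. The largest entry was snai1b, which did not pass, with means of 190.0 CPM in WT and 173.7 CPM in 3etv. Log2 fold changes were -0.38 (tfap2a), -0.59 (sox10) and -1.68 (crestin) for the lower genes. foxd3 (0.05) and sox9b (-0.04) did not pass.

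cdh5 encodes VE-cadherin, the cadherin of blood vessel endothelium. WT embryos had 4.42, 3.90 and 3.35 CPM, all above the 2.20, 2.62 and 2.71 CPM of the 3etv embryos. The log2 fold change was -0.63 ± 0.20 (SE) with an edgeR adjusted p of 0.026, and the adjusted p was between 0.054 and 0.084 without WT 1, WT 2, 3etv 1 or 3etv 2. Of 7 tested endothelial markers, 2 (etv2 and sox7) were higher and 0 lower. The summed level of the list was from 115.3 to 129.0 CPM in WT and from 128.0 to 140.1 CPM in 3etv, and its part in the cdh5 result was not tested. These sums overlapped, and their largest entry was tal1, with means of 46.9 CPM in WT and 56.0 CPM in 3etv, which did not pass. Nor did kdrl, tie1 and cldn5b, with log2 fold changes of -0.07, -0.15 and 0.68. Single markers varied in sign, and fli1a, which did not pass, had from 21.3 to 22.7 CPM in WT and from 19.7 to 20.1 CPM in 3etv. pecam1 had no count in 5 of the 6 libraries. In RefSeq's gene order for the assembly GRCz12tu, cdh5 and cdh11 are neighbours, and their changes had opposite signs.

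The remaining tested type II gene, cdh18a, had 2.27, 2.12 and 1.68 CPM in WT and 3.16, 2.81 and 2.76 CPM in 3etv. These groups did not overlap, but the fitted change, 0.52 ± 0.21 (log2, SE), missed the threshold (edgeR adjusted p 0.078). cdh10a, cdh12a, cdh24a and cdh24b had from 10 to 25 counts in all 6 libraries together and were not tested. In CPM all 3etv embryos lay above all WT embryos for cdh12a and cdh24b, but their raw counts were not separate. cdh12a had 3 counts in WT 2 and 2 in 3etv 1, and cdh24b had 4 in WT 2 and 4 in 3etv 2. Fitted without the filter, neither passed (edgeR adjusted p 0.077 and 0.29). The share of separate groups among all genes below the filter was not computed. Summed over each class, type I cadherins had from 991.5 to 1033 CPM in WT and from 938.6 to 996.7 CPM in 3etv. Type II cadherins had from 227.8 to 235.1 and from 256.0 to 267.8 CPM, and cdh6 and cdh11 held 55.2% and 29.4% of the type II counts.

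**Figure D2:**
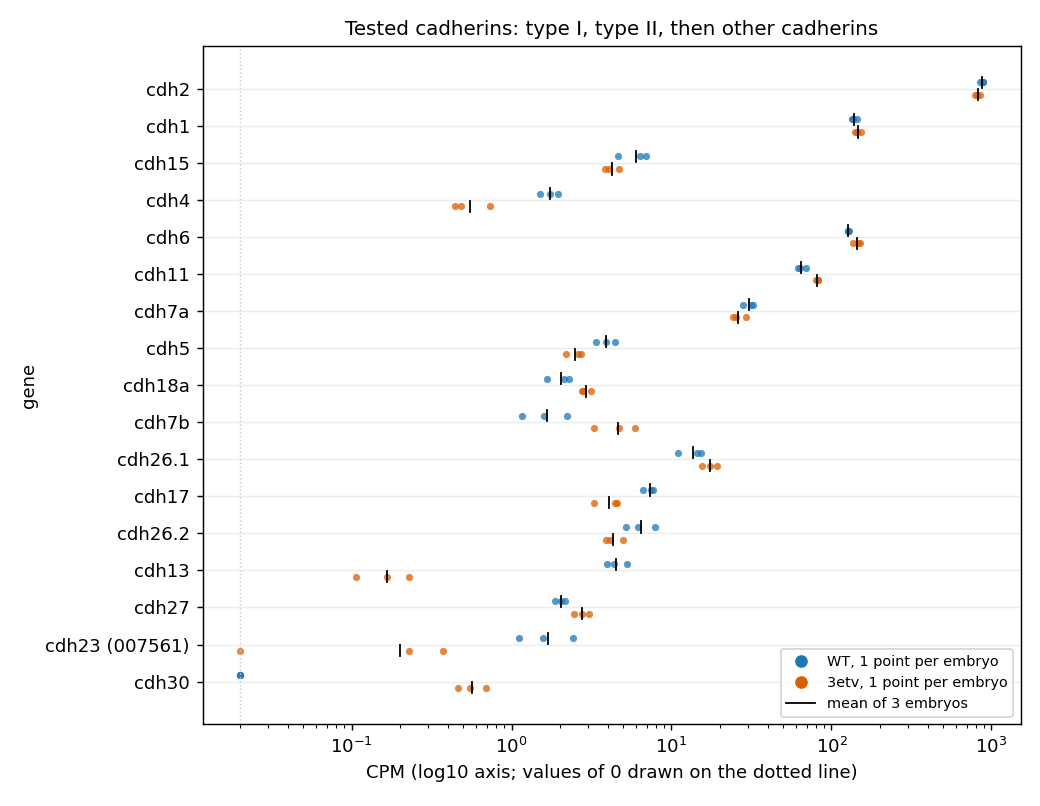
CPM on a log10 axis (horizontal) for tested cadherins (vertical axis: type I, type II, then the others), 1 point per embryo, with the mean of 3 embryos as a black line. cdh13, cdh23, cdh30, cdh4 and cdh7b have the widest separation, while cdh2 and cdh1 lie close together in both groups.

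cdh13 fell to near 0 counts. It encodes T-cadherin, an unusual member that is held in the membrane by a lipid anchor and has no intracellular tail. cdh13 was counted 88, 127 and 133 times in WT embryos and 2, 5 and 3 times in 3etv embryos. As CPM these were 3.93, 4.34 and 5.31 against 0.107, 0.230 and 0.166, so cdh13 was nearly without counts in each mutant embryo. The ratio of summed counts, scaled by library size, was 26.6 with an exact 95% counting interval from 14.3 to 55.9. The fitted log2 fold change was -4.69 (SE 0.32, edgeR adjusted p 4.15e-07), and it stayed between -5.01 and -4.46 over the 14 alternatives. cdh13 passed the filter through the WT group alone.

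cdh23 and pcdh15a encode the paired proteins of the tip link, the filament that opens the transduction channel of hair cells. The cdh23 entry ENSDARG00000007561 had 54, 46 and 28 counts in WT and 7, 5 and 0 in 3etv. Its CPM values were 2.41, 1.57 and 1.12 in WT and 0.375, 0.230 and 0 in 3etv, with no overlap. The scaled count ratio was 8.14 (exact 95% counting interval from 4.50 to 16.2), and the edgeR adjusted p was 0.0017. This entry passed the filter through the WT group alone. The second entry with this symbol, ENSDARG00000094454, had from 3 to 7 counts per library and was not tested. Both entries together had 1.86 CPM in WT and 0.393 in 3etv on average. pcdh15a had 0.847, 0.753 and 0.679 CPM in WT and 0.642, 0.644 and 0.442 CPM in 3etv. These did not overlap, but the fitted change, -0.38 ± 0.35 (log2, SE), missed the threshold (adjusted p 0.44). Of the 5 tested hair cell and otic genes, atoh1a and myo7aa were lower (log2 fold changes -1.62 and -1.13) and 0 were higher. Their summed level was from 155.7 to 175.6 CPM in WT and from 165.7 to 170.6 CPM in 3etv, and their part in the cdh23 result was not tested. Most of that sum was otx1 and pax2a, with means of 76.6 and 72.9 CPM in WT and 83.5 and 68.5 CPM in 3etv. Not all genes of this list are particular to the ear, and pax2a and pax8 are also in the pronephros list. atoh1a and myo7aa had means of 4.06 and 1.57 CPM in WT and 1.34 and 0.724 CPM in 3etv.

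cdh17 and cdh16 belong to a cadherin branch found in transporting epithelia, and cdh17 marks the zebrafish pronephric duct. cdh17 had 7.49, 6.67 and 7.70 CPM in WT and 4.55, 3.27 and 4.42 CPM in 3etv. All mutant embryos lay below all WT embryos, and the log2 fold change was -0.84 ± 0.16 (SE) with an edgeR adjusted p of 0.0017. cdh16, the kidney-specific cadherin of mammals, had 10, 17 and 20 counts in WT and 3, 1 and 2 in 3etv. It did not pass the filter, and its scaled count ratio was 5.98 (exact 95% counting interval from 2.55 to 17.1). Without the filter its log2 fold change was -2.52 (adjusted p 0.0022). Of the 6 genes listed for the pronephros, 1 (lhx1a) was higher and 1 (cdx4) lower. Not all of them, cdx4 included, are particular to the pronephros, and pax2a and pax8 are also in the otic list. Their summed levels were from 387.6 to 430.0 CPM in WT and from 348.7 to 366.7 CPM in 3etv, and their part was not tested. Most of that sum was cdx4, with from 258.8 to 286.3 CPM in WT and from 212.6 to 233.9 CPM in 3etv, and the median log2 fold change of the list was 0.08. The other listed genes had log2 fold changes of 0.45 (lhx1a), 0.34 (pax8), 0.16 (osr1), 0.0013 (hnf1ba) and -0.09 (pax2a), so the lower sum does not describe them.

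cdh30 changed in the other direction, with no count in any WT embryo and 13, 10 and 10 counts in the mutants. It passed the filter through the 3etv group alone. Against a floor of 3 counts per WT library it was at least 4.80-fold higher in 3etv (edgeR adjusted p 4.40e-04). At this depth the WT level was under that floor, from 0.103 to 0.134 CPM per library, and is not shown to be absent.

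The neighbouring copies cdh26.1 and cdh26.2 had fitted changes of opposite sign. cdh26.2 fell, from 5.22, 6.16 and 7.94 CPM in WT to 3.91, 4.97 and 4.14 CPM in 3etv (log2 fold change -0.57, SE 0.18, edgeR adjusted p 0.030). Without WT 2, WT 3, 3etv 1 or 3etv 3 its adjusted p was between 0.057 and 0.15. cdh26.1 had 10.97, 14.4 and 15.2 CPM in WT and 19.1, 15.5 and 17.3 CPM in 3etv. Its groups barely separated, and its fitted change, 0.35 ± 0.13 (log2, SE), missed the threshold (adjusted p 0.055), but it passed without WT 3 (0.038) or without a filter (0.029). cdh27 had from 1.88 to 2.16 CPM in WT and from 2.46 to 3.04 in 3etv and did not pass (adjusted p 0.13). cdh29 and cdh31 were not tested, with 17 and 34 counts in all.

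**Figure D3:**
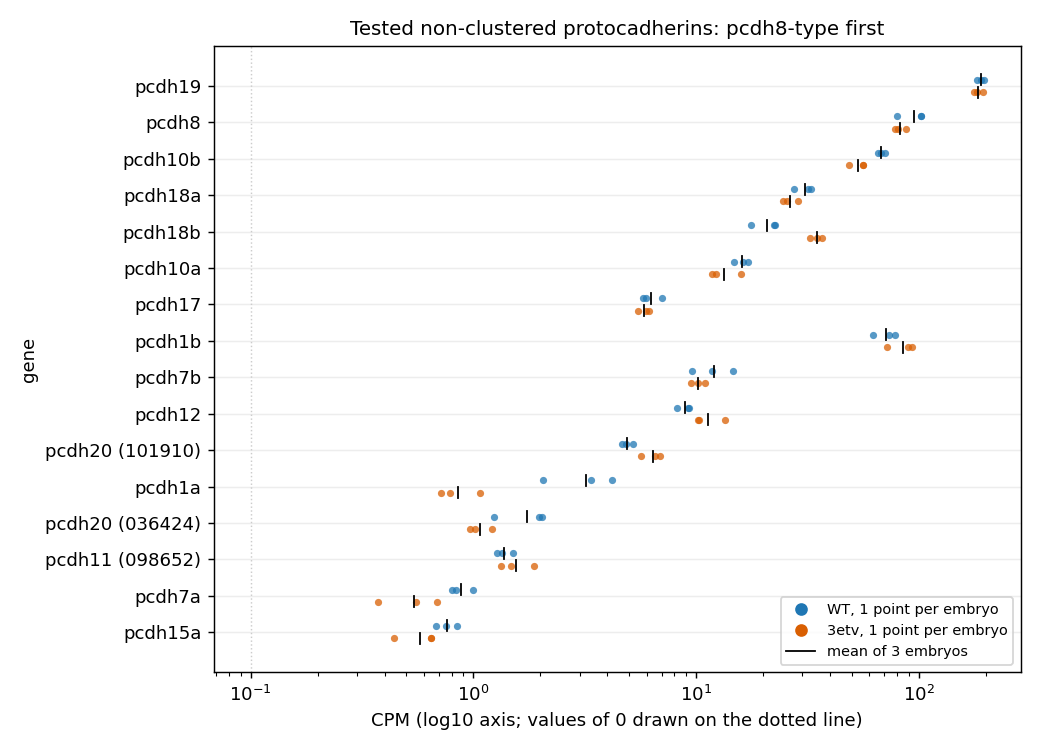
CPM on a log10 axis (horizontal) for tested non-clustered protocadherins (vertical axis: pcdh8 type above, others below), 1 point per embryo, with the mean of 3 embryos as a black line. pcdh18b lies higher in 3etv and pcdh10b and pcdh1a lower, while pcdh19 and pcdh17 overlap.

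In the pcdh8-type group all 7 genes were tested, 2 differed and 5 did not pass. pcdh18b rose from 22.5, 22.3 and 17.7 CPM in WT to 36.9, 32.6 and 35.1 CPM in 3etv. Every mutant embryo was above every WT embryo, with a log2 fold change of 0.74 ± 0.10 (SE) and an edgeR adjusted p of 1.36e-04, a 1.67-fold rise. Its copy pcdh18a had 27.5, 33.0 and 31.9 CPM in WT and 25.6, 28.8 and 24.6 CPM in 3etv. The groups overlapped through WT 1, and the fitted change, -0.23 ± 0.095 (log2, SE), missed the threshold (adjusted p 0.088), except without WT 1 (0.022). The mouse form of protocadherin 18 is known to bind the adaptor Dab1.

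pcdh10b fell from 67.7, 70.5 and 65.8 CPM in WT to 48.5, 56.1 and 56.4 CPM in 3etv. The groups were well apart, with a log2 fold change of -0.34 ± 0.074 (SE) and an edgeR adjusted p of 0.0035. Its copy pcdh10a had 16.2, 14.8 and 17.1 CPM in WT and 15.9, 12.2 and 11.8 CPM in 3etv. Here 3etv 1 lay within the WT range, and the fitted change, -0.27 ± 0.12 (log2, SE), missed the threshold (adjusted p 0.11), except without 3etv 1 (0.020). pcdh18b and pcdh10b, which changed in opposite directions, lie with 1 protein-coding gene between them in the RefSeq order, and pcdh10a and pcdh18a are direct neighbours.

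pcdh8 had 102.4, 79.5 and 102.5 CPM in WT and 87.6, 80.6 and 78.1 CPM in 3etv. WT 2 was as low as the mutant embryos, so the groups overlapped, and the log2 fold change was -0.21 ± 0.094 (SE) with an edgeR adjusted p of 0.12. Without WT 2 it was -0.32 and passed (adjusted p 0.011), so 1 library decided this call. Of 10 paraxial mesoderm markers, 7 were lower and 0 higher, including ripply1 (log2 fold change -0.81), msgn1 (-0.87) and tbx6 (-0.37). The summed level of this list was from 666.8 to 750.2 CPM in WT and from 437.0 to 569.3 CPM in 3etv, and its part in the pcdh8 values was not tested. Over all tested genes, 15.4% were lower and 15.9% higher.

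pcdh19, which acts together with N-cadherin in the zebrafish anterior neural tube, had 196.1, 191.1 and 183.6 CPM in WT and 183.3, 194.8 and 176.4 CPM in 3etv. The values were interleaved, with a log2 fold change of -0.04 ± 0.060 (SE) and an edgeR adjusted p of 0.63. pcdh17 had from 5.78 to 7.05 CPM in WT and from 5.46 to 6.13 CPM in 3etv, also overlapping (log2 fold change -0.10, SE 0.14, adjusted p 0.64). Of 8 neural plate and neuron markers, 4 were lower and 0 higher, with summed levels from 1167 to 1219 CPM in WT and from 1044 to 1131 CPM in 3etv. Summed over the 7 genes, the pcdh8-type group had from 417.1 to 439.4 CPM in WT and from 403.2 to 411.0 CPM in 3etv embryos 1 and 2, with 388.4 CPM in 3etv 3. The sums did not overlap, but the gap was narrow, from 411.0 to 417.1 CPM, and the CPM of single tested genes was separate for 45.1%. pcdh19, pcdh8 and pcdh10b held 45.3%, 21.3% and 14.9% of the counts in these sums. Of them only pcdh10b passed the threshold, and pcdh18b changed in the other direction.

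Among other non-clustered protocadherins, pcdh1a fell and 8 tested genes did not pass. Protocadherin 1 is known in Xenopus as axial protocadherin, from its role in notochord cells. pcdh1a had 2.05, 3.39 and 4.19 CPM in WT and 1.07, 0.782 and 0.718 CPM in 3etv. WT embryos varied among themselves but all exceeded the mutants, with a log2 fold change of -1.91 ± 0.31 (SE) and an edgeR adjusted p of 4.87e-04, or 3.75-fold lower. Its copy pcdh1b had 62.3, 73.3 and 78.4 CPM in WT and 89.8, 93.6 and 72.2 CPM in 3etv. Since 3etv 3 lay within the WT range the groups overlapped, and pcdh1b did not pass (log2 fold change 0.26, SE 0.11, adjusted p 0.091), except without 3etv 3 (0.013). Of 5 notochord markers, 2 (shha and tbxta) were higher and 0 lower, with summed levels from 571.2 to 592.0 CPM in WT and from 617.2 to 680.7 CPM in 3etv, and their part was not tested. Most of that sum was col2a1a, which did not pass, with means of 465.3 CPM in WT and 490.5 CPM in 3etv.

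pcdh12, the endothelial protocadherin of mouse, had 8.25, 9.17 and 9.34 CPM in WT and 10.3, 10.3 and 13.5 CPM in 3etv. All mutant values were above WT, but the fitted change, 0.34 ± 0.13 (log2, SE), missed the threshold (edgeR adjusted p 0.066). The symbol pcdh20 is carried by 2 entries, of which ENSDARG00000101910 is called pcdh20l in the gene name table used here. The pcdh20 entry ENSDARG00000036424 had 1.96, 1.23 and 2.04 CPM in WT and 1.02, 0.966 and 1.22 CPM in 3etv. pcdh20l had 4.86, 4.65 and 5.19 CPM in WT and 6.91, 5.66 and 6.58 CPM in 3etv. The groups of each entry separated, in opposite directions, and neither passed (log2 fold changes -0.70 and 0.38, adjusted p 0.086 and 0.067). Without WT 2 the first passed (adjusted p 0.043). pcdh7a and pcdh7b had log2 fold changes of -0.69 (SE 0.36) and -0.24 (SE 0.15) and did not pass (adjusted p 0.16 and 0.24), except pcdh7b without WT 1 (0.038). The tested pcdh11 entry had from 1.28 to 1.51 CPM in WT and from 1.33 to 1.87 CPM in 3etv (adjusted p 0.65). pcdh9, pcdh15b and a second pcdh11 entry were not tested, with 54, 36 and 30 counts in all.

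Because several copies had opposite signs, the ratio of each copy to its partner was computed within each embryo for 7 pairs, chosen after their values were seen. Such a ratio does not depend on library scaling. Since the pairs were picked for their values, and an exact permutation test of 3 embryos against 3 cannot give a p under 0.10, the ratios are a description with no test. The WT and 3etv ratios were separate in 5 of 7 pairs. The share of separate ratios among other gene pairs was not computed, and the CPM of single tested genes was separate for 45.1%. Whether 5 of 7 is unusual is therefore not known. The mean log2 ratio of pcdh1b to pcdh1a went from 4.53 ± 0.36 in WT to 6.65 ± 0.26 in 3etv (SD, n = 3 embryos each). That of cdh7b to cdh7a went from -4.25 ± 0.46 to -2.54 ± 0.55 (SD), and that of pcdh20l to pcdh20 from 1.53 ± 0.34 to 2.58 ± 0.17 (SD). For pcdh18b to pcdh18a it went from -0.57 ± 0.28 to 0.41 ± 0.20 (SD), so that pcdh18b had fewer counts than pcdh18a in each WT embryo and more in each mutant embryo. Counts were not divided by transcript length, so only the shift between groups can be read, and not which copy is more abundant. The ratio of cdh26.2 to cdh26.1 went the other way, from -1.08 ± 0.14 to -2.0 ± 0.33 (SD). The ratios for pcdh7b to pcdh7a and pcdh10b to pcdh10a overlapped between groups.

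**Figure D4:**
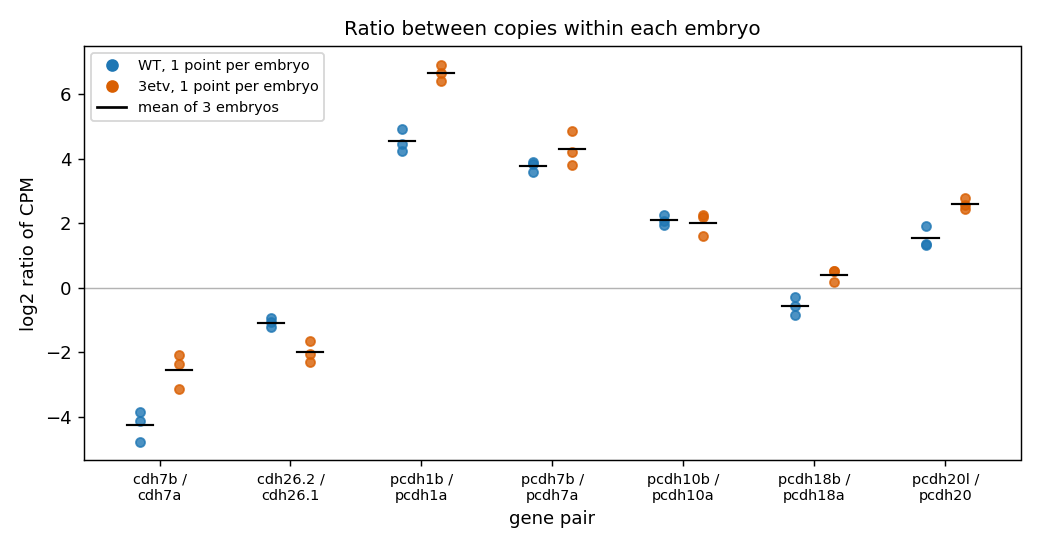
Log2 ratio of CPM between both copies of a gene (vertical axis) in each embryo for 7 pairs (horizontal axis), with the mean of 3 embryos as a black line. The WT and 3etv points separate in 5 pairs and overlap for pcdh7 and pcdh10, and the pcdh18 ratio lies below 0 in WT and above 0 in 3etv. The pairs were chosen after their values were seen. Counts were not divided by transcript length, so the side of 0 does not show which copy is more abundant.

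The counts of clustered protocadherins were concentrated in 1 entry per cluster, and the other entries had few. In cluster 1 (symbols beginning pcdh1a followed by a digit, or pcdh1g), pcdh1g32 held 74.9% of the counts of 20 entries, and in cluster 2 (pcdh2a and pcdh2g) pcdh2g28 held 98.9% of those of 6. The deposited counts hold no other pcdh2g entry, and the rest of these 6 are pcdh2ab entries, so this share does not compare entries of the same kind. By position in the RefSeq order, without regard to strand, pcdh1g32 comes last among the consecutive cluster 1 genes found, which do not include pcdh1g33. That order does not show which gene lies nearest the shared last exons. Transcripts of a cluster can share last exons, but not all entries of a cluster need share the same ones. How the authors' counting assigned reads from shared exons is not stated, so a count of 1 entry need not measure that isoform alone. Reads in the summary entry for ambiguous assignment made up from 0.325% to 0.355% of the table.

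pcdh1g32 had 16.8, 17.1 and 15.6 CPM in WT and 20.9, 16.1 and 18.95 CPM in 3etv. 3etv 2 lay within the WT range, and the log2 fold change was 0.17 ± 0.11 (SE) with an edgeR adjusted p of 0.25. pcdh2g28 had 102.1, 98.7 and 86.4 CPM in WT and 83.3, 86.7 and 113.6 CPM in 3etv. The mutant embryos spanned the whole WT range, with a log2 fold change of -0.02 ± 0.11 (SE) and an adjusted p of 0.92.

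The next entries of cluster 1 were pcdh1g22, pcdh1g30, pcdh1g3 and pcdh1g2, with WT means of 0.770, 0.944, 0.484 and 0.448 CPM and 3etv means of 0.941, 0.555, 0.370 and 0.307 CPM. Each overlapped between groups, and their adjusted p-values were 0.58, 0.24, 0.53 and 0.55 with edgeR. pcdh1g30 had 5, 22 and 7 counts in the 3etv libraries, and without 3etv 2, the embryo with 22, it passed (adjusted p 0.036), as did pcdh1gc6 (0.026), which the main filter removed. The 19 cluster 1 entries other than pcdh1g32 had from 10 to 112 counts each over 6 libraries. Together they had 5.64 ± 0.43 CPM in WT and 6.07 ± 0.29 CPM in 3etv (SD, n = 3 embryos each). In cluster 2 the next were pcdh2ab12, pcdh2ab1, pcdh2ab6 and pcdh2ab10, with from 25 to 38 counts in all. The 5 entries other than pcdh2g28 together had 1.0 ± 0.32 CPM in WT and 1.14 ± 0.26 CPM in 3etv (SD). Among the 15 untested cluster 1 entries, pcdh1g18, pcdh1g26 and pcdh1g31 had all 3etv embryos above all WT embryos in CPM, with 26, 23 and 51 counts in all. Their raw counts were not separate. For pcdh1g18 and pcdh1g26, WT 3 and 3etv 3 had 4 counts each, and pcdh1g31 had 9 in WT 2 and 7 in 3etv 3. Fitted without the filter, pcdh1g18, pcdh1g26 and pcdh1g31 did not pass (edgeR adjusted p 0.36, 0.19 and 0.10). The share of separate groups among all genes below the filter was not computed.

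**Figure D5:**
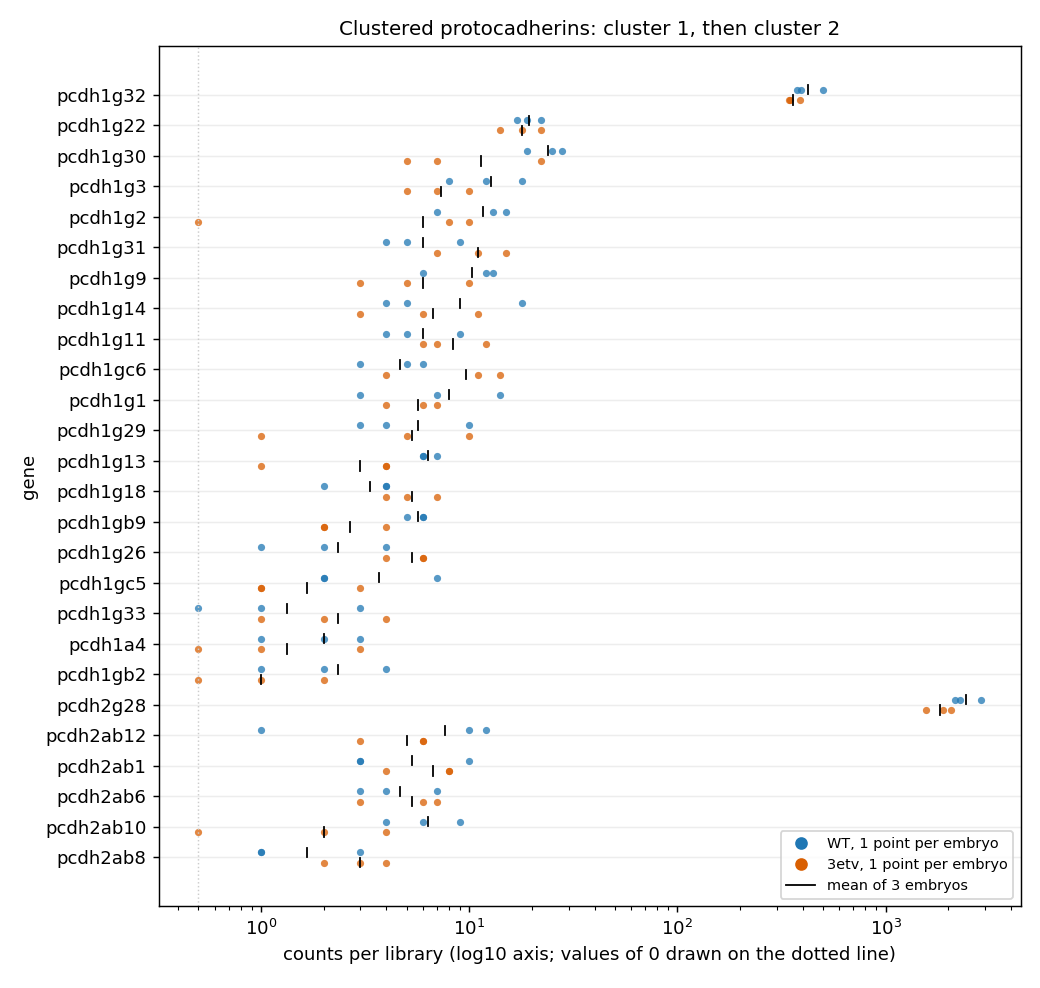
Raw counts per library on a log10 axis (horizontal) for the 26 clustered protocadherins (vertical axis: cluster 1, then cluster 2), 1 point per embryo, with the mean of 3 embryos as a black line. pcdh1g32 and pcdh2g28 stand far to the right of the others, and counts are not scaled for the lower totals of the 3etv libraries.

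Partners of cadherins were read from 3 lists. Of 20 tested catenins and adherens junction genes, 2 were higher and 4 lower, with a median log2 fold change of 0.07. These 6 of 20 were close to the 31.3% of all tested genes that differed. ctnna1, the alpha-catenin that ties the complex to actin in epithelia, was at 161.7 ± 13.8 CPM in WT and rose to 201.2 ± 8.20 in 3etv, by 0.32 on the log2 scale (edgeR adjusted p 0.0037). ctnna2, its neural relative, was at 0.697 ± 0.228 CPM and rose to 2.53 ± 1.15, by 1.84 on the log2 scale (adjusted p 0.0020), both with SD and n = 3 embryos. The beta-catenin genes ctnnb1 and ctnnb2 did not pass (log2 fold changes 0.14 and 0.0036, adjusted p 0.080 and 0.97), nor did ctnnd1, the p120-catenin gene (-0.09, adjusted p 0.275). Lower were arvcfb (-0.42), nectin1b (-0.32), pkp4 (-0.24) and ctnnd2b (-0.23), and the last 3 lost the call without at least 1 embryo. These were nectin1b without WT 2, WT 3, 3etv 2 or 3etv 3 (adjusted p up to 0.15), pkp4 without WT 1, WT 3, 3etv 2 or 3etv 3 (up to 0.074), and ctnnd2b without WT 3 or 3etv 2 (up to 0.062).

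Of 11 tested entries for giant cadherins, which orient cells within a sheet, 1 was higher and 3 lower, with a median log2 fold change of -0.13. Among all tested genes 15.9% were higher and 15.4% lower, and the list was not tested against these shares. fat2 fell from 84.4 ± 3.05 to 64.5 ± 2.99 CPM (SD, n = 3 embryos each, log2 fold change -0.39, edgeR adjusted p 6.27e-04). dchs1a and dchs1b, both copies of a Fat-binding cadherin, were lower by -0.77 and -0.48 (adjusted p 0.011 and 0.018), and celsr1a, a planar polarity gene, was higher by 0.19 (adjusted p 0.032). dchs1b lost the call without WT 2 or 3etv 3 (adjusted p up to 0.094), and celsr1a without WT 1, WT 2, 3etv 1 or 3etv 2 (up to 0.13).

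Of 13 transcription factors known as repressors of the E-cadherin gene or drivers of mesenchymal state, 1 was higher and 4 lower, with a median log2 fold change of -0.10. These counts were not tested against the shares over all tested genes, 15.9% higher and 15.4% lower. twist1a fell from 18.96 ± 1.51 to 10.7 ± 1.26 CPM and snai2 from 47.6 ± 3.87 to 36.5 ± 3.63 CPM (SD, n = 3 embryos each, edgeR adjusted p 1.30e-04 and 0.0055). zeb2a (-0.22) and twist1b (-0.47) were also lower and twist2 (0.56) higher. Those 3 lost the call without WT 2 or 3etv 2, and twist1b also without WT 3 (adjusted p up to 0.066, 0.16 and 0.068 for zeb2a, twist1b and twist2). snai1a and snai1b did not pass (adjusted p 0.86 and 0.43). Of 8 epidermal and periderm markers, 2 were higher and 3 lower, with summed levels from 11800 to 13316 CPM in WT and from 11788 to 12099 CPM in 3etv, beside the cdh1 values given above. The largest entry of that sum was krt4, one of the lower genes, with means of 6558 CPM in WT and 5509 CPM in 3etv.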

How the data were processed

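Poly-A, strand-specific RNA-seq libraries of 6 whole embryos were analysed, 3 per genotype. The authors deposited raw counts per Ensembl gene, whole numbers without normalization. STAR, HTSeq and the build GRCz11 are named in the submitters' processing notes, without settings; the strand setting is not given in the sources used here. The header line lacks 1 tab, so columns were matched to sample titles by splitting it at spaces as well. The 5 summary entries at the end were left out; the entry for no feature held from 52.8% to 53.6% of reads in the table.

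Genes were filtered with filterByExpr, scaled by TMM and tested with the robust quasi-likelihood test of edgeR 4.0.16 in R 4.3.3, with genotype as the sole term. P-values were adjusted by Benjamini-Hochberg over 18533 genes, with a threshold of 0.05. CPM uses TMM scaling, SD is over 3 embryos, and SE was obtained from the log2 fold change and its F statistic as |log2 fold change|/√F. Counting intervals are exact binomial, and these and floors of 3 counts cover counting error only. P-values of the fits set the difference between genotypes against the spread between embryos, and do not cover differences between clutches or lines.

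Alternatives were RLE and upper-quartile scaling, DESeq2 1.42.0, limma 3.58.1 voom, 2 other filters, a threshold of 0.01, a replicate block and leaving out each embryo. Classical cadherins were named throughout; other members and partners were named by fixed lists or when past the threshold, with the highest entries of each cluster. cdh16, cdh26.1, cdh27, cdh29, cdh31, both pcdh20 entries, the copy pairs and single low-count or partner genes not past the threshold were named after their values were seen. Gene names and order came from RefSeq's list for GRCz12tu, where 58 of 67 member symbols were found. No coordinates or sequences are given. Members, lists and tests were chosen with earlier results of these data known.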

Additional observations from a re-analysis of the deposited data

How the results depend on the processing

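Of the 14 differing cadherin and protocadherin genes, 10 passed in each of the 14 alternatives in which they were tested (cdh4, cdh7b, cdh11, cdh13, cdh17, cdh23, cdh30, pcdh1a, pcdh10b and pcdh18b), and 4 did not (cdh5, cdh6, cdh15 and cdh26.2). Of these, cdh13, cdh23 and cdh30 passed the main filter through 1 group alone, so a difference was built into their being tested. The number differing was from 10 to 16 over alternatives keeping all embryos, and from 12 to 17 without 1 embryo. Over all genes, 5801 differed, 3460 at an adjusted p under 0.01 and from 4247 to 5721 without 1 embryo. Of the 15 partner genes, 6 passed throughout.

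When the replicate number was added as a block, 4524 genes and 11 cadherin and protocadherin genes differed, cdh5, cdh6 and cdh15 being lost; of the partners, nectin1b, pkp4, celsr1a, zeb2a and twist1b were lost too (adjusted p from 0.060 to 0.11). Same-numbered embryos deviated from their group means with correlations of -0.18, -0.030 and -0.14, none above 0.1, which is no evidence that equal numbers pair embryos. Without a filter, 16 differed, adding cdh7a, cdh16 and cdh26.1 and losing cdh6.

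Signs changed for 2 clustered genes. pcdh2g28 ranged from -0.17 to 0.068 and pcdh1g2 from -1.19 to 0.0079 (log2) without 1 embryo. pcdh2g28 had 12833 counts but differed between 3etv embryos, from 83.3 to 113.6 CPM, while pcdh1g2 had 53 counts. The direction is not known for either gene. The copy ratios, recomputed without each embryo as an alternative chosen after seeing the data, kept their sign except pcdh10b to pcdh10a, whose difference ranged from -0.18 to 0.14 (log2). Scaling moved the median of all genes to at most 0.016 (log2).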
